A study of Ovis aries with 15 samples.

Results

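The comparison described here was between mammary gland libraries made in late pregnancy from ewes whose mothers had been fed below maintenance (LMLP) and from ewes whose mothers had been fed ad libitum (HMLP). The libraries were chosen by their labels, without use of any expression value, and were 6 of the 15 libraries of the series, 3 in each group. In the study, Romney dams grazed a sub-maintenance, maintenance or ad libitum pasture allowance between days 21 and 50 of gestation. The dams of all the groups used here then received a maintenance allowance until day 140. Their daughters, which are the animals sampled, were all farmed on pasture at a common level of feeding and gave needle biopsies of mammary parenchyma at about day 135 of their own pregnancy. RNA was sequenced from pools, each made from 3 ewes according to the series design, so that differences between individual ewes cannot be seen and each value is the average of a pool. The 3 late pregnancy pools from maintenance-fed dams (MMLP) helped to estimate the spread between pools and are set beside the extremes, and the lactation pools from sub-maintenance (LML) and ad libitum (HML) dams, 2 of each and taken at about day 15 post partum, give the same feed contrast in the other physiological state. The series design gives 2 ewes for each lactation pool, while the study's methods give 3 for the pools of both states.

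In late pregnancy the alveolar epithelium of the mammary gland multiplies and then differentiates into secretory cells under the control of prolactin, glucocorticoid and insulin, while progesterone holds back copious secretion until birth. Differentiating cells begin to transcribe the caseins and whey proteins, the enzymes that make lactose and milk fat, and the membrane proteins that coat the secreted fat globule. Feeding of a pregnant ewe can alter the growth of the mammary rudiment of the fetus she carries.

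The LMLP libraries held 15248004 to 16898986 reads assigned to exons, and the HMLP libraries held 6471237 to 13919007, so every LMLP library was deeper than every HMLP library. Lane 8 was named for all 3 LMLP libraries and for 1 of the HMLP libraries, the other 2 being named for lane 7, although the labels state that each library was spread across 2 lanes. Intronic reads made up 15.5% to 16.1% of gene reads in LMLP and 14.4% to 15.9% in HMLP. The luminal epithelial markers, which include the keratins 8 and 18, were all detected, with a summed level of 3633 to 3987 CPM (counts scaled to a common library size) in LMLP and 3617 to 3889 CPM in HMLP. Summed levels are over all members of a list found in the table, tested or not. Red blood cell markers summed to at most 3.22 CPM in LMLP and 2.82 CPM in HMLP. All CPM values were scaled by the trimmed mean of M values (TMM), and the p-values below measure the spread between pools. In tissue of mixed cell types, fewer cells of a type and less RNA in each cell cannot be told apart.

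Across 13747 genes tested, no gene differed between LMLP and HMLP at an adjusted p under 0.05 in edgeR's quasi-likelihood test (0.0% called), and the smallest adjusted p was 0.227. At an unadjusted p under 0.05 there were 471 genes, 3.43% of those tested, of which 229 (1.67%) were higher and 242 (1.76%) were lower in LMLP. limma on the quantile-normalized values also called 0 genes, with 517 at an unadjusted p under 0.05. DESeq2 called 7 genes on the same reads (0.0509%), 3 higher and 4 lower in LMLP, and had 356 (2.59%) at an unadjusted p under 0.05. These 7 were TGM1, ABI3BP and LOC101108654 on the higher side, and TGFBI, GP2, CSN1S1 and MFGE8 on the lower side.

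Differences were small for most genes. The median absolute log2 difference was 0.090, the 95th percentile was 0.51, and the median standard error was 0.15. A difference above 2-fold was estimated for 133 genes, of which 11 were in the set of 8627 genes that averaged 10 CPM or more. The 95% interval lay within 2-fold in either direction for 12028 genes (87.5%), and within 1.5-fold for 9279 genes (67.5%). Among genes of at least 10 CPM the interval lay within 2-fold for 98.9% and within 1.5-fold for 92.7%. For the remaining genes the interval reached a difference of that size or larger. Scaling by library size alone shifted the median of all genes to 0.109, so the medians of all gene lists are to be read relative to this shift.

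Pools of different feed groups were no further apart than pools of the same group. The median over genes of the absolute log2 difference between 2 libraries was 0.15 to 0.23 for the 3 pairs within LMLP, 0.16 to 0.21 for the 3 pairs within HMLP, and 0.15 to 0.21 for the 9 pairs between them. The libraries of LMLP and HMLP did not overlap for 1026 genes (7.46%), with all LMLP libraries above all HMLP libraries for 519 (3.78%) and below them for 507 (3.69%).

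**Figure D1:**
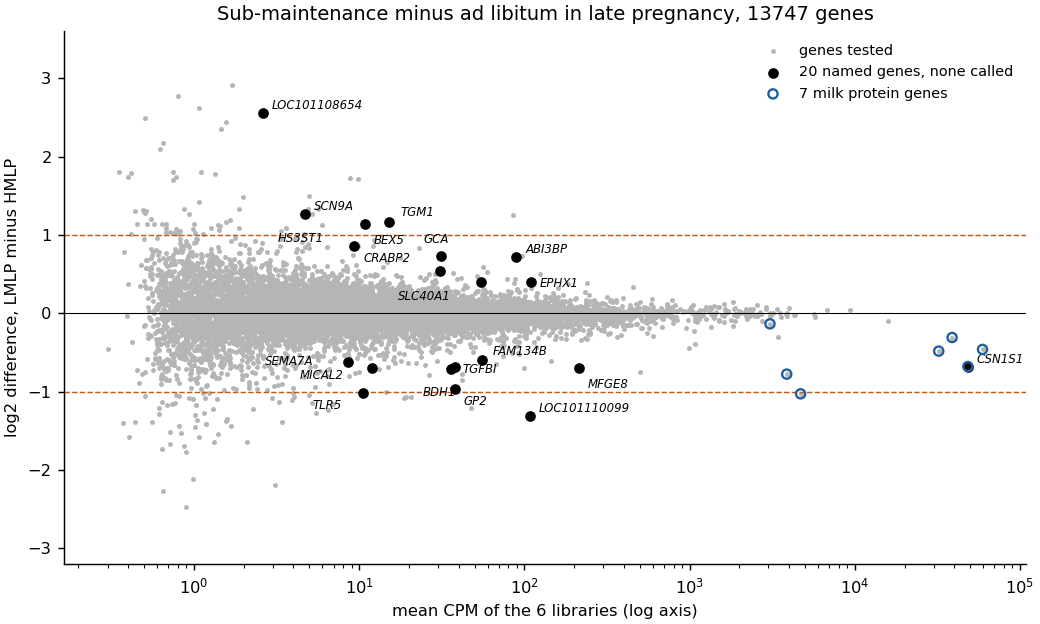
Log2 difference between LMLP and HMLP (vertical axis) against the mean CPM of the 6 libraries (horizontal log axis) for the 13747 genes tested, each a grey point. Filled points are the 20 named genes with the smallest p, open circles the 7 milk protein genes, and dashed lines a 2-fold difference; all 7 milk protein genes lie below 0 and no gene was called.

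The milk protein genes took a smaller share of reads in LMLP than in HMLP. The share of reads on the 7 genes was 17.5%, 13.8% and 16.6% in LMLP (15.9% ± 1.95, SD, n = 3) and 23.4%, 18.1% and 21.7% in HMLP (21.1% ± 2.73, SD, n = 3). Every HMLP library was above every LMLP library, and the means differed by -5.11 percentage points. The maintenance libraries held 17.7%, 16.4% and 13.7% (15.9% ± 2.04, SD, n = 3), which spanned the LMLP range and lay below all HMLP libraries. All 7 genes had a negative log2 difference, with a median of -0.48 against 0.0019 for all genes tested. None was called by edgeR, and 5 of 7 were lower at an unadjusted p under 0.05, where 1.76% of all genes were lower at that threshold. The 7 genes share a secretory cell type and, for the 4 caseins, 1 cluster on chromosome 6, so they are not 7 independent observations.

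CSN1S1, which encodes αS1-casein and lies on chromosome 6 between 85088046 and 85104769 of Oar_v3.1, was at 41938, 29987 and 39579 CPM in LMLP and at 65708, 47767 and 65272 CPM in HMLP. The groups did not overlap. HMLP was 1.60-fold higher (log2 LMLP minus HMLP -0.68, SE 0.16, edgeR adjusted p = 0.852), and DESeq2 called the gene at an adjusted p of 0.0163. CSN3, for κ-casein, which keeps the casein micelle in suspension, was at 32405, 19855 and 28250 CPM in LMLP and at 43002, 32974 and 36642 CPM in HMLP. The groups again did not overlap, although the highest LMLP library was close to the lowest HMLP library, and the log2 difference was -0.48 (SE 0.17). LALBA, on chromosome 3 between 137390655 and 137392683, encodes α-lactalbumin, the whey protein that turns a galactosyltransferase into lactose synthase. It was at 3777, 2340 and 2437 CPM in LMLP and at 5955, 4122 and 4590 CPM in HMLP, with no overlap and a log2 difference of -0.78 (SE 0.25).

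The other milk protein genes overlapped between the groups. CSN2, for β-casein, was at 56816, 42394 and 50354 CPM in LMLP and at 79546, 52675 and 73869 CPM in HMLP (log2 difference -0.46, SE 0.20). Its lowest HMLP library lay inside the range of LMLP. BLG, for the whey protein β-lactoglobulin, was at 37652, 29171 and 37131 CPM in LMLP and at 46098, 37550 and 45248 CPM in HMLP (log2 difference -0.31, SE 0.14), and here too only the lowest HMLP library reached the LMLP range. CSN1S2, for αS2-casein, varied most within a group, at 5750, 1668 and 1851 CPM in LMLP and 11140, 2634 and 5145 CPM in HMLP. Its log2 difference of -1.03 had a 95% interval from -2.11 to 0.05. GLYCAM1, a mucin-like milk protein, had the smallest difference of the 7, -0.14 (SE 0.17), with 3586, 2203 and 2973 CPM in LMLP and 3606, 2755 and 3266 CPM in HMLP.

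**Figure D2:**
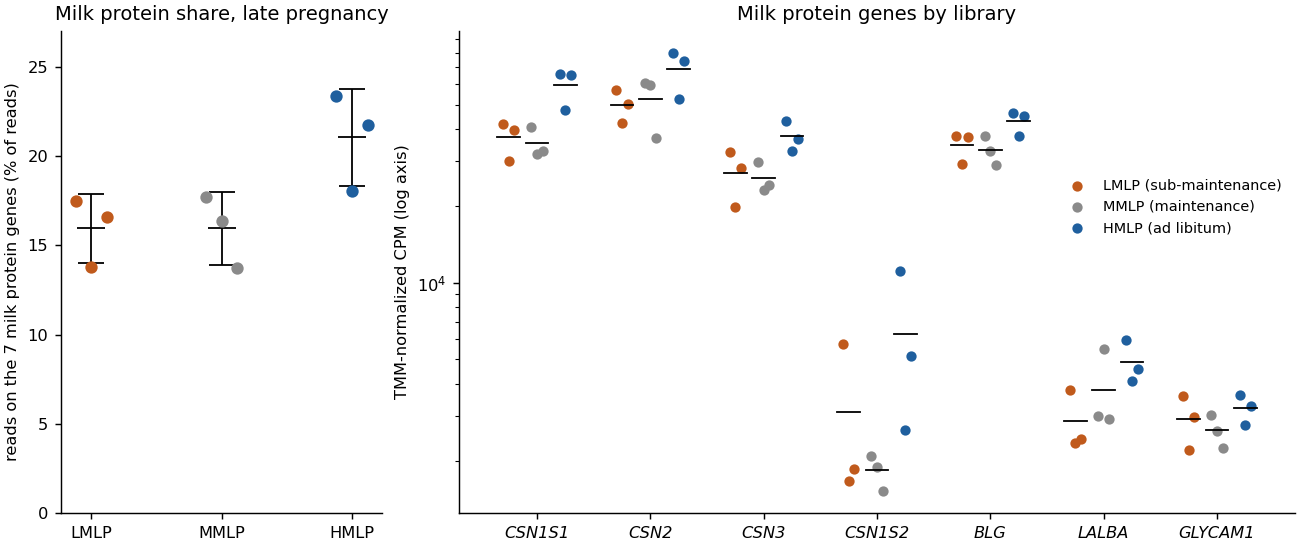
Left, the share of reads on the 7 milk protein genes in each late pregnancy library (points) with the group mean and SD; right, TMM-normalized CPM of each gene in each library on a log axis, with a line at the group mean. The 3 HMLP libraries hold 18.1% to 23.4% of reads on these genes, above the 13.8% to 17.5% of LMLP and the 13.7% to 17.7% of MMLP.

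The maintenance pools give a further reference for the milk proteins. CSN1S1 had a log2 difference of 0.08 for LMLP minus MMLP and of -0.76 for MMLP minus HMLP, and CSN3 of 0.07 and -0.55. LALBA was at -0.41 and -0.36, with 1 MMLP library at 5487 CPM, and GLYCAM1 at 0.15 and -0.29. These comparisons share libraries with the one between the extremes and are not further evidence for it. Neither LMLP against MMLP nor MMLP against HMLP had a gene called by edgeR, with 602 genes (4.38%) and 674 genes (4.9%) at an unadjusted p under 0.05, while DESeq2 called 6 (0.0436%) and 12 genes (0.0873%). Among the 12 was CSN1S1, lower in MMLP.

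Of the genes for fat uptake, assembly and secretion, 3 were lower in LMLP at an unadjusted p under 0.05, and none was called. Across all genes tested, 1.76% were lower at that threshold. MFGE8, on chromosome 18 between 19583534 and 19597141, encodes lactadherin, a protein of the fat globule membrane that also marks dying cells for uptake. It was at 172, 179 and 136 CPM in LMLP and at 239, 216 and 340 CPM in HMLP (log2 difference -0.71, SE 0.16, edgeR adjusted p = 0.852, DESeq2 adjusted p = 0.0261). The groups did not overlap. BTN1A1, for butyrophilin, which anchors the fat droplet to the apical membrane, was at 929, 733 and 870 CPM in LMLP and at 1221, 1095 and 1137 CPM in HMLP (log2 difference -0.45, SE 0.11). XDH, for xanthine oxidoreductase, its partner at that membrane, was at 2616, 3038 and 3506 CPM against 3563, 3738 and 3993 CPM, a log2 difference of -0.30 (SE 0.14). In both, all LMLP libraries lay below all HMLP libraries. ABCA1, a pump that moves cholesterol out of cells, had a value of the other sign, 0.35 (SE 0.13), with overlapping groups.

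These belong to a list of genes for fat uptake, triacylglycerol assembly and milk fat secretion, of which 36 of the 39 searched were tested. The median log2 difference was -0.12, and 29 of 36 were negative, with 3 lower and 1 higher at an unadjusted p under 0.05. Of all genes tested, 1.76% were lower and 1.67% higher at that threshold. The summed level of the list was 8042 to 8755 CPM in LMLP and 9853 to 10073 CPM in HMLP, while MMLP spanned 7138 to 9181 CPM. LPL, the lipase that releases fatty acids from blood lipoproteins, had a log2 difference of -0.56 with an unadjusted p of 0.073 in edgeR, and PLIN2, which coats the lipid droplet, was at 0.04. The list median was -0.18 without the first LMLP library, -0.078 without the second and -0.013 with scaling by library size alone.

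For fatty acid synthesis the median of 30 tested genes was -0.026, with 17 negative and 13 positive, and it was 0.023 without the second LMLP library and 0.082 with scaling by library size alone. FASN, the fatty acid synthase, had a log2 difference of -0.05 and SCD, the main desaturase, also of -0.05. ACACA, for the carboxylase at the first committed step, was at 169, 147 and 173 CPM in LMLP and at 201, 175 and 210 CPM in HMLP (-0.26, SE 0.10), without overlap. ELOVL1, which elongates very long fatty acids, was at -0.24 (SE 0.10) and INSIG1, which retains the sterol sensor in the endoplasmic reticulum, at -0.54 (SE 0.25). All 3 were lower at an unadjusted p under 0.05, as were 1.76% of all genes tested. PPARGC1A, a coactivator of oxidative metabolism, had the largest positive value of the list, 0.79 (95% interval -0.05 to 1.62), at 2.46, 2.01 and 4.70 CPM in LMLP against 1.57, 2.63 and 1.25 CPM in HMLP.

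The cholesterol synthesis genes had negative differences without exception, 21 of 21 tested, with a median of -0.21 against 0.0019 for all genes tested. They belong to 1 pathway, so they are not 21 independent observations. The mean log2 CPM of the list had an SD of 0.18 between pools of the same late pregnancy group. SQLE and LSS, which encode the consecutive enzymes that make and cyclize squalene epoxide, were lower at an unadjusted p under 0.05, and none was called. SQLE was at 69.3, 73.0 and 87.1 CPM in LMLP and at 99.6, 87.4 and 106 CPM in HMLP (-0.36, SE 0.15), so the groups were separated by less than 1 CPM. LSS was at 8.79, 10.9 and 16.03 CPM in LMLP and at 17.3, 12.8 and 21.5 CPM in HMLP (-0.54, SE 0.24), with overlap. The summed level of the list overlapped, at 815 to 1099 CPM in LMLP, 1030 to 1192 CPM in HMLP and 952 to 1336 CPM in MMLP. The list median was -0.33 without the third LMLP library, -0.15 without the first and -0.11 with scaling by library size alone.

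In the list for lactose synthesis and glucose supply, 15 of 20 genes tested were negative and the median was -0.091, which became 0.019 with scaling by library size alone. Beside LALBA, PGD of the pentose phosphate pathway was lower (-0.33, SE 0.12) and PGM1, which interconverts glucose phosphates, was higher (0.27, SE 0.10) at an unadjusted p under 0.05. B4GALT1, the galactosyltransferase that α-lactalbumin modifies, was at -0.02 and the glucose transporter gene SLC5A1 at -0.16. For beta-oxidation the median of 26 genes was 0.049. EHHADH, a peroxisomal enzyme, was higher (0.28, SE 0.12, no overlap) and CPT1B, which admits fatty acids to mitochondria, was lower (-0.58, SE 0.25) at that threshold, while HADHA and HADHB, the subunits of the mitochondrial trifunctional protein, were at 0.11 and 0.14.

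Of 27 tested genes for endoplasmic reticulum chaperones and the unfolded protein response, 23 were negative with a median of -0.12, and 0 had an unadjusted p under 0.05. The smallest p was that of SYVN1, which encodes a ubiquitin ligase of the reticulum, at -0.21 (SE 0.13), followed by the disulfide isomerase genes PDIA6 (-0.18) and P4HB (-0.14) and the stress factor ATF4 (-0.13). With the lane in the column name as a factor the median of this list was 0.034, and with scaling by library size alone it was -0.010. Ribosomal protein genes were level, with a median of -0.0039 over 77 genes and 0 at an unadjusted p under 0.05, and the interval of 76 of them lay within 1.5-fold. Among heat shock genes, HSPB1 was at -0.22 (SE 0.09) and HSPA1A at 0.65 (SE 0.19), both without overlap. Reads that map to 1 place made up 24% for HSPA1A, so its value cannot be told from that of a near-identical copy.

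Genes of hormone signalling had a median log2 difference of 0.020, with 12 positive and 11 negative. Of 23 tested genes for the lactogenic and steroid hormone response, STAT5A and STAT5B, which carry the prolactin signal, were both at -0.08. ELF5, the transcription factor of alveolar differentiation, was at 1035, 1027 and 1057 CPM in LMLP and at 1151, 1087 and 1094 CPM in HMLP (-0.10, SE 0.08). NR3C1, the glucocorticoid receptor, was at 0.18 (SE 0.14). The gene listed as LOC443444, named PGR, the progesterone receptor, in RefSeq, was at -0.37 (SE 0.29), with 1 LMLP library at 5.54 CPM and the other 2 at 15.2 and 14.7 CPM. LOC100037694, named TNFSF11 in RefSeq, encodes RANK ligand, a paracrine signal of progesterone for epithelial growth. It was at 3.38, 2.52 and 2.19 CPM in LMLP and at 1.57, 1.70 and 1.503 CPM in HMLP, without overlap (0.77, SE 0.27), and was the 1 gene of the list at an unadjusted p under 0.05.

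In the insulin and IGF list, 25 of 36 genes were negative with a median of -0.062, which became 0.043 with scaling by library size alone. IRS1, the adaptor that couples the insulin and IGF receptors to PI3 kinase, lies on chromosome 2 between 228036501 and 228097629. It was at 19.1, 22.6 and 21.6 CPM in LMLP and at 27.9, 26.9 and 27.4 CPM in HMLP (-0.38, SE 0.10, edgeR adjusted p = 1), and was the 1 gene of this list at an unadjusted p under 0.05. Its groups did not overlap, and MMLP, at 24.7, 22.2 and 22.7 CPM, lay below HMLP and partly inside the LMLP range. IGFBP7, PIK3CA and FOXO3 had the next smallest p and were at -0.23, -0.13 and -0.29, with overlap.

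Among 26 imprinted genes tested, 1 was higher and 1 lower at an unadjusted p under 0.05. Of all genes tested, 1.67% were higher and 1.76% lower at that threshold, so these counts are not read as a result about imprinted genes. PLAGL1, a zinc finger regulator of growth, was at 14.4, 17.02 and 13.8 CPM in LMLP and at 11.3, 12.5 and 13.3 CPM in HMLP (0.30, SE 0.14). KCNQ1, a potassium channel gene, was at 2.03, 0.974 and 0.515 CPM in LMLP and at 2.19, 2.32 and 2.38 CPM in HMLP (-0.95, SE 0.43). Both were without overlap. SLC22A18 and GRB10 were at -0.77 (SE 0.37) and -0.22 (SE 0.11). The 50 tested genes for DNA methylation and histone modification had a median of 0.0027 and 0 at an unadjusted p under 0.05, and the interval of 49 of them lay within 2-fold. KAT2A (-0.19), HDAC4 (0.34), HDAC7 (-0.28) and GADD45A (-0.44) had the smallest p of this list.

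Cell cycle genes had a median of 0.045 over 63 genes, 40 of them positive, and RFC3, a subunit of the clamp loader of DNA replication, was higher at an unadjusted p under 0.05 (0.24, SE 0.11). GINS3, CCNE2 and CCNE1 followed at 0.27, 0.31 and 0.34. The median was -0.15 without the second LMLP library and 0.22 without the first, so its sign was set by single libraries. Circadian clock genes (21 tested, median -0.018) and immediate early genes (22 tested, median -0.061) each had 0 genes at an unadjusted p under 0.05. In the first, NFIL3 was at 0.17 and CRY2 at -0.20, and in the second NR4A1, KLF4, EGR1 and MYC had the smallest p, at -0.75, -0.57, -0.36 and -0.11.

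**Figure D3:**
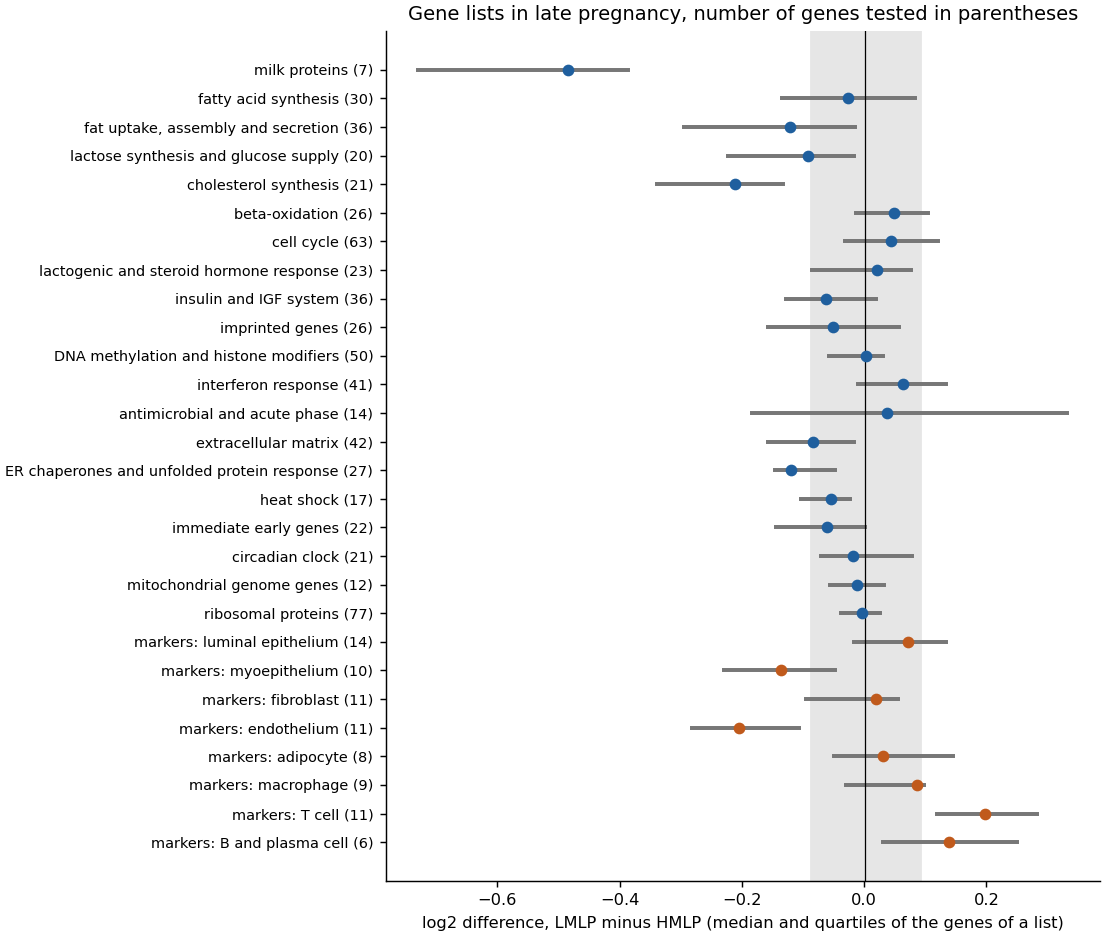
Median (point) and quartiles (bar) of the log2 difference between LMLP and HMLP over the tested genes of each list with at least 5 tested, in blue for functions and in orange for cell type markers; the grey band marks the quartiles of all genes, -0.087 to 0.093. Milk proteins lie farthest from 0, at a median of -0.48.

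The antimicrobial and acute phase list had 4 of 14 tested genes higher in LMLP at an unadjusted p under 0.05, where 1.67% of all genes were higher, although its median was 0.037, and -0.042 without the third LMLP library. CHI3L1, a chitinase-like protein of the involuting gland, was at 488, 534 and 501 CPM in LMLP and at 428, 385 and 390 CPM in HMLP, without overlap (0.34, SE 0.11). LOC554321, named LTF in RefSeq, encodes the iron-binding milk protein lactoferrin and was at 142, 157 and 64.4 CPM in LMLP and at 56.4, 60.1 and 35.6 CPM in HMLP (1.26, SE 0.57). MMLP spanned both groups for LTF, from 29.02 to 229 CPM, and with lane as a factor its log2 difference was 0.41. HP, for haptoglobin, was high in 1 LMLP library only, at 32.9 CPM against 6.82 and 5.15 CPM in the others and 3.61 to 5.41 CPM in HMLP. Its log2 difference was 1.71 (SE 0.61), and 0.38 without that library. TLR2, a receptor for bacterial lipoproteins, was at 30.9, 40.9 and 37.8 CPM in LMLP and 31.7, 27.8 and 28.8 CPM in HMLP (0.31, SE 0.11).

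Of the neutrophil markers, 3 of 10 searched passed the filter on low reads, with 1 higher at an unadjusted p under 0.05. All neutrophil markers found, tested or not, summed to 18.9 to 21.4 CPM in LMLP and 14.7 to 17 CPM in HMLP. T cell markers had a median of 0.20, with 10 of 11 positive and a summed level of 106 to 145.7 CPM in LMLP against 90.5 to 113 CPM in HMLP. The median was 0.095 without the second LMLP library and 0.31 without the third. CD3E, a chain of the T cell receptor complex, was at 34.4, 36.3 and 27.7 CPM in LMLP and 28.0, 23.8 and 26.7 CPM in HMLP (0.32, SE 0.11). CD4 was at 1.23, 1.32 and 0.966 CPM against 0.392, 0.463 and 0.125 CPM (1.80, SE 0.54), a difference that rests on few reads. CD3G was at 0.24. The part of these cells in the antimicrobial values was not tested. The 41 interferon response genes had a median of 0.064 and 0 at an unadjusted p under 0.05, with IFI44, PSMB9, HERC6 and IFI35 leading by p at 0.43, 0.18, 0.41 and 0.16.

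Luminal epithelial markers had a median of 0.071 over 14 genes and 0 at an unadjusted p under 0.05. Of the 14, 10 were positive and 4 negative, from -0.17 to 0.16. CDH1 was at 0.16, EPCAM at 0.12, EHF at 0.14 and ELF5 at -0.10. Myoepithelial markers, the contractile cells around the alveolus, had a median of -0.14 over 10 genes, and of -0.027 with scaling by library size alone. They summed to 1482 to 1613 CPM in LMLP, 1582 to 1646 CPM in MMLP and 1648 to 1662 CPM in HMLP. As a share of reads, without TMM scaling, LMLP and HMLP overlapped, at 0.143% to 0.165% and 0.152% to 0.165%. ACTG2 (-0.44, SE 0.17) and TAGLN (-0.23, SE 0.10) of this list were lower at an unadjusted p under 0.05, followed by ACTA2 (-0.22) and CNN1 (-0.26). Endothelial markers were negative for 10 of 11 genes with a median of -0.20. PECAM1, a junction protein of endothelium, was at 130, 113 and 118 CPM in LMLP and at 130, 148 and 149 CPM in HMLP (-0.24, SE 0.09), the groups touching at 130 CPM, and ROBO4, ERG and VWF were at -0.34, -0.32 and -0.20. The endothelial median was -0.31 without the first HMLP library and -0.11 without the second. Fibroblast, macrophage and adipocyte markers had medians of 0.019, 0.087 and 0.032, and B and plasma cell markers of 0.14 over 6 genes, with 0 genes of each at an unadjusted p under 0.05. With lane as a factor the fibroblast median was -0.18 and the macrophage median -0.083, and without the third HMLP library the adipocyte median was 0.59. Of 12 skeletal muscle markers searched, 4 were tested, all negative with a median of -0.25, and all those found summed to 11.1 to 17 CPM in LMLP, 11.9 to 25.9 CPM in HMLP and 25.8 to 45.8 CPM in MMLP. The 1 red blood cell marker tested was at -0.23. The 12 genes of the mitochondrial genome tested had a median of -0.011, with 1 higher at an unadjusted p under 0.05.

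The extracellular matrix list leaned to negative values, 33 of 42 genes, with a median of -0.083 that was 0.036 without the third HMLP library and 0.035 with scaling by library size alone, and that was -0.16 without the first HMLP library and -0.22 with lane as a factor. COL16A1, a fibril-associated collagen, was higher (0.44, SE 0.15), at 104, 90.6 and 107 CPM in LMLP and 72.4, 69.7 and 81.0 CPM in HMLP. TNXB (-0.28, SE 0.10), COL18A1 (-0.32, SE 0.13) and FBLN2 (-0.39, SE 0.17), which encode a tenascin, the precursor of endostatin and a fibulin, were lower at an unadjusted p under 0.05. Of the 42 genes, 1 was higher and 3 were lower at that threshold, where 1.67% of all genes were higher and 1.76% lower. COL16A1 and TNXB were without overlap.

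The 20 genes named by rank, 10 in each direction, had unadjusted p-values from 1.65e-05 to 0.00207 in edgeR and adjusted p-values from 0.227 to 0.994, so none was called. By the rule that chose them, the LMLP and HMLP libraries of each do not overlap. TGM1, on chromosome 7 between 20523958 and 20538086, encodes a transglutaminase that cross-links proteins beneath the membrane of squamous epithelium. It was at 19.8, 21.3 and 21.8 CPM in LMLP and at 6.98, 12.4 and 9.39 CPM in HMLP, 2.24-fold higher in LMLP (log2 difference 1.17, SE 0.17, edgeR adjusted p = 0.227, DESeq2 adjusted p = 1.28e-05). The MMLP libraries were at 12.0, 12.7 and 13.8 CPM, the lowest of them inside the HMLP range and the others between the HMLP and LMLP ranges. Without the second HMLP library TGM1 was called by edgeR, with a log2 difference of 1.38 and an adjusted p of 0.0365.

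ABI3BP, on chromosome 1 between 163615139 and 163910222, encodes a matrix protein that binds a cytoskeletal regulator. It was at 121, 117 and 97.1 CPM in LMLP and at 79.8, 58.1 and 63.7 CPM in HMLP (0.72, SE 0.13, edgeR adjusted p = 0.618, DESeq2 adjusted p = 0.00185). LOC101108654, which has no gene name here, was at 6.33, 3.15 and 4.06 CPM in LMLP and 1.10, 0.927 and 0.125 CPM in HMLP, with a wide interval for its log2 difference of 2.56 (1.37 to 3.75). SCN9A, for a sodium channel of sensory neurons, was at 6.03, 6.25 and 7.60 CPM in LMLP against 2.27, 3.71 and 2.50 CPM in HMLP (1.27, SE 0.28). The other genes of this side were GCA (0.73), a calcium-binding protein of granulocytes, BEX5 (1.14), CRABP2 (0.54), which carries retinoic acid to its receptor, SLC40A1 (0.40), the iron exporter ferroportin, EPHX1 (0.40), an epoxide hydrolase of detoxification, and HS3ST1 (0.86), which sulfates heparan. GCA was at 43.7, 33.6 and 39.9 CPM in LMLP, 23.2, 21.5 and 20.97 CPM in MMLP, and 18.3, 20.9 and 31.7 CPM in HMLP, so that its LMLP libraries stood above both other groups.

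On the lower side, MICAL2, for an enzyme that oxidizes actin, was at 9.22, 9.57 and 8.63 CPM in LMLP and at 16.7, 14.1 and 13.5 CPM in HMLP (-0.70, SE 0.13). TGFBI, on chromosome 5 between 44831852 and 44859674, encodes a matrix protein induced by TGF-beta. It was at 28.9, 28.6 and 24.7 CPM in LMLP and 42.6, 42.9 and 49.3 CPM in HMLP (-0.71, SE 0.13, edgeR adjusted p = 0.618, DESeq2 adjusted p = 0.00962). The ranges of the groups lay well apart for both genes. GP2, on chromosome 24 between 17926803 and 17941622, encodes a membrane glycoprotein of secretory granules. It was at 25.3, 26.9 and 24.8 CPM in LMLP and 41.9, 37.5 and 71.5 CPM in HMLP (-0.97, SE 0.21, edgeR adjusted p = 0.852, DESeq2 adjusted p = 0.0105). With lane as a factor GP2 was called by edgeR, at -1.33 and an adjusted p of 0.0497.

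LOC101110099 had the largest negative difference of the 20 (-1.31, SE 0.28), at 62.2, 72.8 and 51.8 CPM in LMLP and 186, 107 and 169 CPM in HMLP. BDH1 (-0.69), an enzyme of ketone body metabolism, TLR5 (-1.02), the receptor for bacterial flagellin, FAM134B (-0.60), a receptor for turnover of the endoplasmic reticulum, SEMA7A (-0.62), a membrane-bound semaphorin, and the MFGE8 and CSN1S1 described above made up the rest. For 16 of the 20 genes the mean of the maintenance libraries was between the means of LMLP and HMLP. The genes were chosen for a gap between LMLP and HMLP, so another group is likely to fall between them. The count is therefore not read as a graded response to feed. The mean was not between for FAM134B, at 36.8, 37.3 and 50.9 CPM in MMLP against 49.6, 46.1 and 36.8 CPM in LMLP and 73.6, 63.3 and 62.9 CPM in HMLP.

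**Figure D4:**
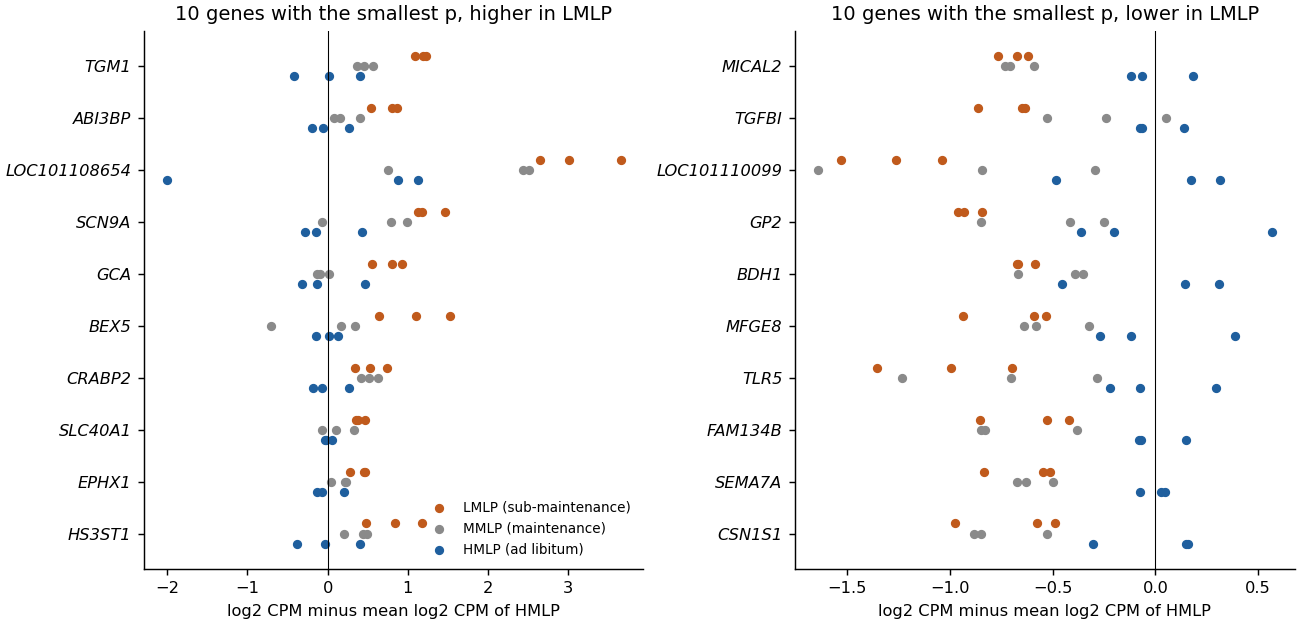
Log2 CPM of each library minus the mean log2 CPM of the 3 HMLP libraries (horizontal axis) for the 20 genes named by rank, 10 higher (left) and 10 lower (right) in LMLP. Each point is 1 library; the LMLP and HMLP points of a gene do not overlap by the rule that chose the genes, and the grey MMLP points show where the maintenance pools fell.

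The same feed contrast was made here on the lactation libraries. All 7 milk protein genes had a positive log2 difference for LML minus HML, with a median of 0.11, but without the first HML library 4 were positive and 3 negative, with a median of 0.032. The second HML library held 75.8% of its reads on these genes, above the 75.2% and 75.3% of LML, and the first held 71.3%. CSN1S1 was at 0.10 (SE 0.18) and LALBA at 0.44 (SE 0.16). The difference between the states, (LMLP minus HMLP) minus (LML minus HML), was -0.79 for CSN1S1 and -1.23 for LALBA, each with an edgeR adjusted p of 0.789, and was not called for any of the 7. According to the study's methods ewes were biopsied in late pregnancy and again in lactation, so pools of the states may share animals, which this test treats as independent. The cholesterol synthesis genes were negative in lactation as well, 21 of 21 with a median of -0.40, and SQLE was at -0.48 (SE 0.12, edgeR adjusted p = 0.432). The list median was -0.24 without the second LML library, with 19 of 21 negative, and -0.33 without the first HML library, with 18 of 21 negative. Of the 20 genes named by rank, 18 were tested in lactation and 13 had the same sign there. Signs were not counted over all genes, so the 13 are not read as a repeat of the late pregnancy differences. LOC101108654 (2.39) and BEX5 (1.55), 2 of the 18, had an unadjusted p under 0.05, as did 7.91% of all genes tested in lactation. Across the 11658 genes tested in both states the log2 differences had a Pearson r of 0.0672 and a Spearman rho of 0.0159, over genes that are not independent replicates.

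The lactation contrast had 1 of 11777 genes called by edgeR (0.00849%), LOC101113211, with 931 (7.91%) at an unadjusted p under 0.05 and 20 (0.17%) called by DESeq2. The test of the difference between states had 1 of 14073 genes called (0.00711%), COL21A1, with 864 (6.14%) at an unadjusted p under 0.05 and 7 (0.0497%) called by DESeq2. The first HML library had intronic reads at 13.2% of its gene reads, where the second had 6.26% and the LML libraries 5.85% and 6.35%. Without it, which leaves 1 HML library, LOC101113211 was at 1.83 in the lactation contrast, against 1.76 with all libraries. COL21A1 was at 2.49 in the test of the difference between states, against 2.73 with all libraries. HP and LTF, above, stood at 84.6 and 197.7 CPM in that library and at 1.19 and 2.38 CPM in the second HML library, so their lactation values rest on 1 pool.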

How the data were processed

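Total RNA from pools of ewes was sequenced after TruSeq V2 preparation, which keeps no strand, so overlapping antisense genes cannot be told apart. According to the study's methods, paired reads were mapped in CLC Genomics Workbench to a version of the sheep genome that differs from the Oar_v3.1 the labels name. Coordinates are given as in the file, under the labels' build. The authors deposited 1 table of 24691 genes with counts of exon and gene reads, RPKM and quantile-normalized RPKM values for 15 libraries, and columns of their own fold changes and Baggerly tests between states, which were not used. No sample column was left unmapped (0).

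Total exon reads were analysed, and total gene reads for the 5583 genes without an exon length. edgeR 4.0.16 (R 4.3.3) was run with filterByExpr, TMM scaling and quasi-likelihood tests on the 9 late pregnancy libraries, with Benjamini-Hochberg adjustment over all genes, and a gene was called at an adjusted p under 0.05. The same model was fitted to the 6 lactation libraries and, for the interaction, to all 15. DESeq2 1.42.0 and limma 3.58.1, on log2 of the deposited quantile-normalized values plus 1, were alternatives. The scripts were tested on simulated data. Genes were named by a rule: for each direction the 10 with the smallest p (called genes first) among those averaging 1 CPM or more whose groups did not overlap, the 7 milk proteins, and up to 4 genes of each list with the smallest p; other members are named for their function and were chosen after their values were seen, and marker or housekeeping lists are given by counts. LOC names were resolved by a RefSeq table of another assembly, used for names only. The members and lists were chosen with earlier results of these data known. The labels do not say that pools share no ewe, and counts of a gene with near-identical copies may be split by the mapper. Some genes that the rule names are not reported here.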

Additional observations from a re-analysis of the deposited data

Results flagged for a closer look

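COL21A1, a fibril-associated collagen gene on chromosome 20 between 4215419 and 4381705, was the 1 gene for which the feed contrast differed between late pregnancy and lactation in edgeR's interaction test. The difference between the states was 2.73 on the log2 scale (SE 0.39, adjusted p = 0.0367). In late pregnancy it was at 5.10, 5.90 and 6.69 CPM in LMLP and at 4.70, 6.02 and 6.76 CPM in HMLP, which overlapped. In lactation it was at 0.794 and 0.520 CPM in LML, on 13 and 6 reads, and at 5.20 and 3.73 CPM in HML, on 52 and 47 reads. The 2 maintenance libraries of lactation lay in between, at 1.65 and 1.84 CPM. The adjusted p was 0.000359 in DESeq2 and ran from 0.0101 to 0.408 when 1 library was left out, with the highest value without the first HML library. It was over 0.05 without either LML library, the first HML library, the first or second HMLP library, or LMLP library 2 or 3. Pools of both states may share ewes, which the test does not model.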

How the results depend on the processing

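The number of genes called between LMLP and HMLP was 0 in 18 of 22 alternatives, among them the 6 libraries alone, all 15 libraries, unique reads, reads on whole genes and, chosen after seeing the data, reads thinned to equal depth and each MMLP library left out. It was 7 with DESeq2, 1 with lane as a factor (GP2), 1 with no filter (TGM1) and 0 to 1 with 1 library left out, the 1 being TGM1 without the second HMLP library. Between 431 and 862 genes had an unadjusted p under 0.05 with 1 library left out, the highest without the first LMLP library. Scaling by library size only shifted the median of all genes to 0.109. The DESeq2 counts were 6 for LMLP against MMLP, 12 for MMLP against HMLP, 20 in lactation and 7 for the interaction. With 1 library left out the counts ran over 0 to 0, 0 to 1, 0 to 22 and 0 to 11. Library size only gave 6 in lactation.

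The difference in milk protein share was -6.62 to -3.95 percentage points with 1 library left out, -5.48 with unique reads and -4.52 with reads on whole genes. The milk protein median stayed negative in 22 of 22 alternatives, nearest 0 (-0.082) on quantile-normalized RPKM, a scale that sets the top ranks equal: there CSN2 and BLG were at 0.0 and CSN3 at 0.0932. GLYCAM1 ran from -0.3046 (without the first LMLP library) to 0.0333 (without the second), ELF5 at 0.0101 and DNAJB4 at 0.0048 with library size only, and DNAJB4 at 0.0398 with lane as a factor. Of 2346 values of named genes under alternatives, 2329 kept their direction and side of the threshold and 10 passed it.

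Replicate numbers are shared between groups. Same-numbered LMLP and HMLP libraries deviated together only weakly (r 0.067, 0.067 and 0.023), and differently numbered ones had r from -0.081 to 0.024. So few pools cannot exclude a pairing by number, and the main test treated them as unpaired. A replicate block gave 0 calls in late pregnancy and 5 in lactation. Intervals were wider for low genes: they lay within 2-fold for 98.9% of genes of at least 10 CPM against 87.5% of all.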
